A study of Mus musculus with 59 samples.

Results

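Granulocyte–monocyte progenitors (GMPs) were compared with KLS cells taken from the same mice in animals carrying floxed alleles of both Daxx and Pu.1. The members were the 4 gene-level libraries from mice labelled Daxx F/F and Pu.1 F/F with Cre +/-, which were 2 KLS and 2 GMP libraries out of 59 samples in the series, and all genes were read in them. KLS cells (c-Kit+Lin-Sca-1+) are the bone marrow fraction that holds the haematopoietic stem cells, and GMPs (lineage-negative c-Kit+ cells that lack Sca-1 and carry CD34 and CD16/32) are myeloid-committed cells downstream of them. The comparison asks how far the KLS cells of these mice already carry the RNA profile of GMPs. It was set beside 3 WT animals (Daxx +/+ Cre +/-) and 3 Daxx-KO animals (Daxx F/F Cre +/-), each with 1 KLS and 1 GMP library. All 8 animals were C57BL/6 mice of the Mx1Cre line with 1 copy of Cre, WT included, and all were sampled 3 weeks post induction (w.p.i.). Cre under the Mx1 promoter is switched on by interferon after pI:pC injection. Ages were not given per library, and mice of both sexes were used in the study.

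Daxx encodes a chaperone that places the histone variant H3.3 on chromatin, and Pu.1, encoded by Spi1, is a transcription factor needed for myeloid and B-cell development. GMPs give rise to neutrophils, monocytes and, in part, to basophils and eosinophils. Neutrophil precursors first make primary granule proteins such as myeloperoxidase and elastase, then secondary granule proteins such as lactoferrin and cathelicidin under the transcription factors Gfi1 and Cebpe, while monocyte development depends on Irf8 and Klf4. Receptors for the colony-stimulating factors GM-CSF, M-CSF and G-CSF carry the growth signals of these lineages, and several of their genes are textbook Pu.1 targets.

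Values are reads per gene recovered from the deposited normalised counts and rescaled jointly over the 16 libraries, called rescaled reads here. Differences are GMP minus KLS on the scale log2(rescaled reads + 1), with the standard error (SE) of the limma fit and the Benjamini-Hochberg adjusted p over 14716 genes. A gene was called higher or lower in GMPs when the adjusted p was under 0.05. With 2 animals labelled as double deleted, the p-values rest on a spread shared over all 8 animals. As each animal was a block, that spread is how the GMP-minus-KLS difference varied between animals of the same genotype, their sorts included. KLS and GMP values came from separate deposited tables, so any effect of how each set of libraries was made cannot be told apart from cell type within a genotype. In bulk RNA, fewer cells of a type and less RNA per cell cannot be told apart.

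The deleted genes were read first. Daxx was at 82.6 and 69.6 rescaled reads in the KLS libraries labelled DKO and at 67.7 and 85.7 in the GMP libraries, against 390.8 to 464.1 in WT KLS cells and 663.6 to 744.4 in WT GMPs, so the ranges did not overlap. Spi1 was at 2928 and 2669 in the KLS libraries labelled DKO, above the 1545 to 2131 of WT KLS cells. The GMP libraries labelled DKO held 4137 and 3246, WT GMPs 3570 to 4984 and Daxx-KO GMPs 3823 to 4322. The value of 3246, from animal 2, was thus below every other GMP library. Spi1 RNA was not lowered in the KLS libraries labelled DKO and was still present in the GMP libraries. Because gene-level reads cannot show whether a floxed exon was removed, these libraries are called DKO-labelled throughout. Spi1 differed between DKO-labelled GMPs and KLS cells by 0.39 ± 0.17 (SE, adjusted p = 0.164), against 1.35 in WT, and the difference between genotypes was -0.96 ± 0.22 (adjusted p = 0.0494). That genotype call was kept with TMM scaling and by DESeq2. It was lost with total-count scaling, with no filter, without the animal block and by edgeR. With 1 animal left out in turn, it was kept only without Daxx-KO animal 2.

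Libraries held 11384751 to 15812520 reads. The sort matched its gate for Kit, at 4059 or more in the DKO-labelled libraries, while Ly6a, which encodes Sca-1, was at 289 and 503.6 in DKO-labelled KLS cells and at 60.0 and 11.8 in GMPs (-3.78, adjusted p = 0.0103). The T cell markers Cd3e, Cd3d and Cd3g were at 76.7, 77.5 and 204.7 in the KLS library of DKO-labelled animal 1, above every other KLS library (14.5, 8.79 and 37.8 at most). In that of animal 2 they were at 5.16, 6.87 and 23.2. The part of these cells in the comparison was not tested. The summed reads of 15 B-lineage genes, mostly from Ighm, were highest in DKO-labelled KLS cells, at 132799 to 170916. They were 52399 to 132193 in Daxx-KO KLS cells and 3314 to 103560 in WT KLS cells, against 13175 at most in any GMP library. Within the other genotypes, WT KLS animal 3 and Daxx-KO KLS animal 2 stood apart with raised myeloid values. Call counts over all genes are given with these animals left out, beside the results or in the closing section. Mean positions and the genotype counts of the neutrophil lists are given without WT animal 3. The other list counts include both animals. Some B-lineage genes were raised in these animals too. Ighm was at 101119 in WT KLS animal 3, against 6624 and 2470 in the other WT animals. Ebf1 was at 21430 in Daxx-KO KLS animal 2, against 3245 and 992.7 in the other Daxx-KO animals.

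Promoters of genes on either side of the result are shown first, since all 4 hold the same 8-letter PU.1-type motif GAGGAAGT (ACTTCCTC on the other strand) but their genes behaved differently. Elane and Prtn3, neighbouring neutrophil protease genes on chromosome 10, did not differ between DKO-labelled GMPs and KLS cells beyond the threshold. Ctsc, which encodes the protease that activates them, and Gapt, which encodes a GRB2-binding membrane adaptor, were both higher in DKO-labelled GMPs. The sequences are RefSeq promoters (build GRCm38.p6), 5′ to 3′ in the direction of transcription, with the motif in capitals. Each ends before any annotated exon of its gene within the 250 bases searched. The Prtn3 stretch lies inside the annotated span of that gene (10:79874476-79883174), which begins upstream of it.
Elane, chr10:79886062-79886246, plus strand: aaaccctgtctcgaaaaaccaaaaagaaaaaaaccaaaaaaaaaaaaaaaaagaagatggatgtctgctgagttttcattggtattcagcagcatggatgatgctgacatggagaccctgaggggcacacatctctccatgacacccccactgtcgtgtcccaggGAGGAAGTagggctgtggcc
Prtn3, chr10:79879417-79879613, plus strand: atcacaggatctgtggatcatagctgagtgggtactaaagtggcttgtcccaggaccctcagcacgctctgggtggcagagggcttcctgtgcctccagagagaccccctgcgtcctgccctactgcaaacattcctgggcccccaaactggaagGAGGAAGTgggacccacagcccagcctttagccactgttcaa
Ctsc, chr7:88277835-88278084, plus strand: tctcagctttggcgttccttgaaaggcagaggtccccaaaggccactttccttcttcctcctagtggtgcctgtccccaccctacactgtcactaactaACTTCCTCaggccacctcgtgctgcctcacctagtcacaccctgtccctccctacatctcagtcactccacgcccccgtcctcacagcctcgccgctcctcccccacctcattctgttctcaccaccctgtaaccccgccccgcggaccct
Gapt, chr13:110357200-110357422, minus strand: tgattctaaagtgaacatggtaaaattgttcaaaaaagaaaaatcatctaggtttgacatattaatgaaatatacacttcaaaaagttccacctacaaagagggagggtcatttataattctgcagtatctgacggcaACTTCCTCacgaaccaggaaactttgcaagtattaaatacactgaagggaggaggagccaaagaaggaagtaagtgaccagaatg
The motif lay 77 bases before the RefSeq start in Elane, 87 in Prtn3, 143 in Ctsc and 104 in Gapt. Over windows of 300 bases (250 before to 50 after the start), 3.79% of 10680 tested genes with a promoter held it on either strand. The share was 6.93% for genes higher in DKO-labelled GMPs (37 of 534) and 3.88% for genes lower there (28 of 721). It was 44.4% in the primary granule list (4 of 9), 25% in the late neutrophil list (4 of 16) and 27.3% in the monocyte list (3 of 11), so it was frequent in lists with few and in lists with many members called between the cell types. C/EBP-type motifs (TTGCGCAA, and TTGCACAA with its reverse complement TTGTGCAA) lay in 1.18% of all windows, 1.31% of those of higher genes and 0.971% of those of lower genes. A match of letters is a description and not evidence of binding.

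DKO-labelled GMPs and KLS cells differed at 1714 of 14716 genes, or 11.6%, with 696 higher in GMPs (4.73%) and 1018 lower (6.92%). The same contrast called 6731 genes in WT (45.7%, with 22.3% or 3284 higher and 23.4% or 3447 lower) and 5200 in Daxx-KO animals (35.3%, with 16.2% or 2390 higher and 19.1% or 2810 lower), where 3 animals stood behind each estimate in place of 2. A test of the difference between the DKO-labelled and the WT contrast called 371 genes (2.52%), of which 166 had a more positive difference in DKO-labelled animals (1.13%) and 205 a more negative one (1.39%). Against Daxx-KO animals 311 genes were called (2.11%), of which 141 were more positive (0.958%) and 170 more negative (1.16%), with the DKO-labelled animals shared between both tests. The counts moved with the animals used. Without DKO-labelled animal 2 the DKO-labelled contrast gave 255 higher and 200 lower calls, and without Daxx-KO animal 2 it gave 1181 and 1359. Without the animal block the difference from WT gave 84 and 38 calls, and without DKO-labelled animal 1 it gave 29 and 9. With each animal left out in turn, 45 of 85 genes read singly and called between DKO-labelled GMPs and KLS cells stayed called, and 5 of the 43 genes named as different from WT, which were Aqp9, Csf2rb2, Gata2, Kcnk12 and Ltb4r1. Without WT animal 3 the WT contrast gave 2078 higher and 2277 lower calls and the difference from WT 80 and 216, and without Daxx-KO animal 2 the difference from WT gave 263 and 370. As calls over all genes were fewer in DKO-labelled animals than in WT, a smaller count for a gene list is to be read against 4.73% and 6.92% beside 22.3% and 23.4%, and the tested genotype differences stand apart from these counts. The split between higher and lower calls depended on scaling, with 446 and 1924 in DKO-labelled, 2179 and 4460 in WT and 1321 and 3892 in Daxx-KO animals on the values as deposited. Total-count scaling gave 2417 and 4112 calls in WT and 1674 and 3316 in Daxx-KO animals. The median over all genes was -0.02 in DKO-labelled, -0.04 in WT and -0.02 in Daxx-KO animals. The size of the within-animal difference did not separate the genotypes: 22.8% and 34.9% of genes differed at least 2-fold in the DKO-labelled animals, 31.7 to 44.2% in WT and 28.4 to 40.3% in Daxx-KO.

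To place each library between the cell types, 4288 genes called in WT with an absolute difference of at least 1 were used as an axis, from 0% at the WT KLS mean to 100% at the WT GMP mean. WT KLS libraries lay at -7.5, -6.2 and 14.0% and Daxx-KO KLS libraries at 3.7, 28.9 and 2.4%. The DKO-labelled KLS libraries lay at 45.7 and 32.2%, above every other KLS library, with a mean of 39% ± 9.6 (SD, n = 2). The DKO-labelled GMP libraries, at 82.4 and 106.0%, fell within the 78.8 to 112.8% of WT GMPs.

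The shift was uneven between both ends of the axis. For 1725 genes higher in WT GMPs the DKO-labelled KLS libraries lay at 61.7 and 51.8%, against -13.4, -11 and 25.6% in WT and 3.0 to 32.7% in Daxx-KO KLS cells. For 2563 genes higher in WT KLS cells they lay at 38.3 and 23.8%, and this range overlapped that of Daxx-KO KLS cells, which reached 27.0%. On an axis made from genes called in Daxx-KO animals the DKO-labelled KLS libraries were at 67.3 and 53.3% for GMP-high genes and at 30.4 and 16.4% for KLS-high genes. Without WT animal 3 the mean of the DKO-labelled KLS libraries was 47.2% over all axis genes and 66.9% for GMP-high genes. These positions are descriptions, as WT libraries both define the axis and lie on it.

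**Figure D1:**
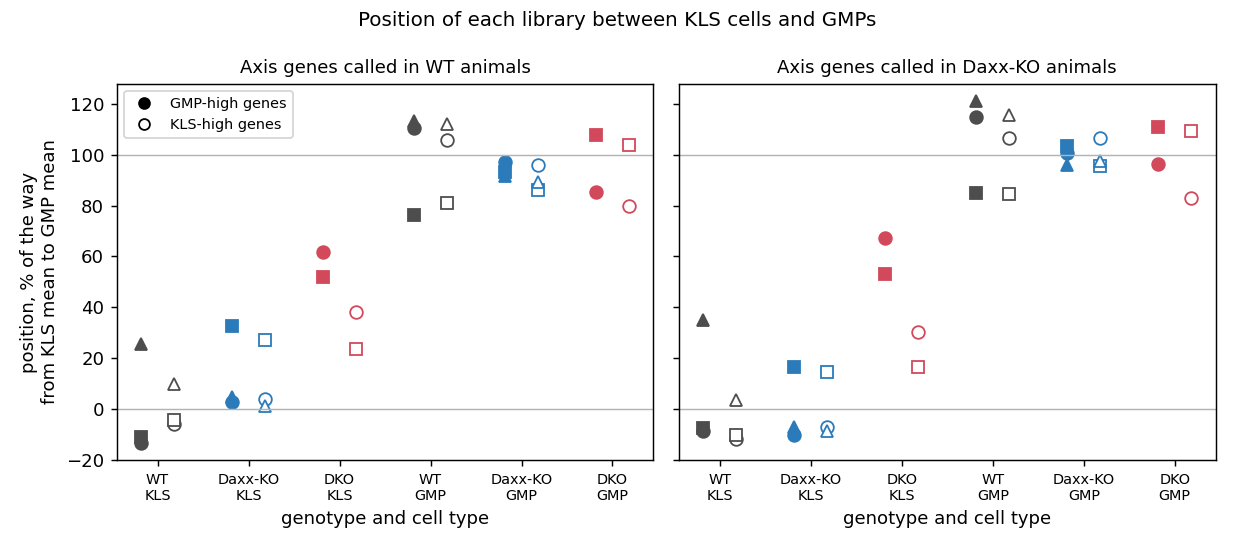
Position of each of 16 libraries (points, shaped by animal) along the axis from KLS mean to GMP mean, in percent, for axis genes called in WT (left) or in Daxx-KO animals (right). Filled points use GMP-high genes and open points KLS-high genes. The DKO-labelled KLS libraries sit at 61.7 and 51.8% for GMP-high genes of the WT axis, between the other KLS libraries and the GMPs.

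Gene by gene, the GMP-high genes of WT had a median difference of 1.52 in WT, 1.17 in Daxx-KO and 0.57 in DKO-labelled animals. Of these 1725 genes, 85.2% kept a positive difference in DKO-labelled animals, 338 were called higher there and 2 were called lower. The KLS-high genes had medians of -2.15, -1.77 and -1.29, with 93.4% of 2563 negative in DKO-labelled animals and 885 called lower. Since WT chose these genes, WT medians are inflated by that choice. Daxx-KO animals chose another set without WT, and there the 1188 GMP-high genes had medians of 0.61 in DKO-labelled and 1.71 in WT animals, and the 2143 KLS-high genes -1.50 and -2.23.

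**Figure D2:**
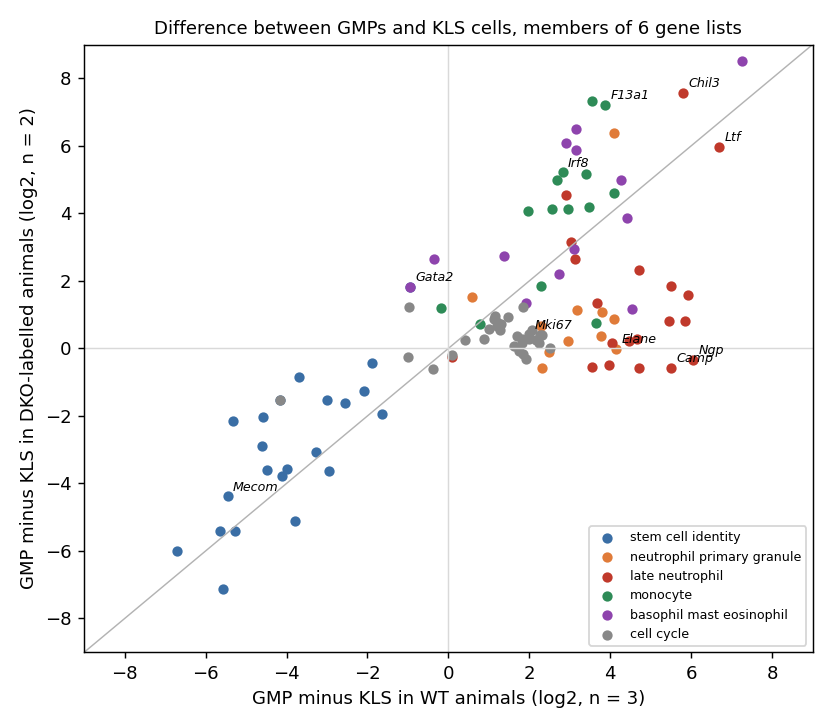
GMP-minus-KLS difference (log2) in WT animals (x axis, n = 3) against DKO-labelled animals (y axis, n = 2) for members of 6 gene lists, with the diagonal of equal differences. Late neutrophil genes such as Ngp and Camp lie near 0 on the y axis and far right on the x axis, while Chil3 and Ltf lie far from 0 on both, and monocyte genes such as F13a1 lie above the diagonal.

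Primary granule genes were high in DKO-labelled KLS cells already, and few members separated them from GMPs. Of 11 tested members, 2 were higher in DKO-labelled GMPs and 0 lower, against 11 higher in WT, and the medians were 0.67 and 3.19. Higher calls over all genes also went from 22.3% in WT to 4.73%, so the drop in this count was close to that of all genes. Their summed reads were 98939 to 103996 in DKO-labelled KLS cells, 6019 to 43593 in WT KLS cells and 112185 to 215328 in DKO-labelled GMPs. Elane, which encodes neutrophil elastase, was at 43370 and 39403 in DKO-labelled KLS cells and 32339 and 52409 in GMPs, so the cell types overlapped (-0.01 ± 0.73, adjusted p = 0.997). In WT it was at 785.6, 1608 and 11812 in KLS cells and 28414 to 58037 in GMPs. The difference between the genotypes was -4.15 ± 0.94 (adjusted p = 0.0471).

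Mpo, which encodes myeloperoxidase, was at 33313 and 42290 in DKO-labelled KLS cells and at 54494 and 116628 in GMPs (1.09 ± 0.74, adjusted p = 0.369). Its difference from the WT contrast was -2.70 and was not called (adjusted p = 0.178). Of the other members, the contrast was called smaller than in WT for Prss57 (-2.58, adjusted p = 0.0199), Nkg7, a granule membrane protein gene shared with cytotoxic lymphocytes (-2.90, adjusted p = 0.0167), Cst7, a cysteine protease inhibitor gene (-2.74, adjusted p = 0.045), and Serpinb1a, an elastase inhibitor gene with close paralogues (-1.62, adjusted p = 0.045). With Elane this made 5 of 11 members, while 1.39% of all genes were called with a more negative difference. The count in this list was 1 without the animal block and 6 without WT animal 3. All 5 calls were lost without WT animal 1, and those of Elane, Cst7 and Serpinb1a without WT animal 2 and by edgeR. None of the 5 genes kept its call with each animal left out in turn. Prtn3 overlaps the annotated gene Plppr3 and is uncertain for that reason.

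The 2 primary granule genes that were higher in DKO-labelled GMPs were Ctsc and Clec5a. Ctsc was at 490.3 and 479.5 in KLS cells and 1413 and 1402 in GMPs (1.54 ± 0.25, adjusted p = 0.00279), and its KLS values lay within the 465.7 to 735.3 of WT KLS cells. Clec5a, which encodes a myeloid activating lectin receptor, was at 14.3 and 15.5 in KLS cells, below every WT KLS library (52.0 to 345.6), and at 1102 and 1589 in GMPs (6.38 ± 0.48, adjusted p = 5.36e-05).

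Late neutrophil genes followed the same course in part. Of 20 tested members, 4 were higher in DKO-labelled GMPs, against 19 in WT, a drop close to that over all genes (22.3% in WT and 4.73% in DKO-labelled animals). In 10 of the 20 the contrast was called smaller than in WT, with medians of 0.82 and 4.68. Over all genes 1.39% were called with a more negative difference. The count of 10 was 1 without the animal block and 12 without WT animal 3. Lcn2, Cebpe, Wfdc21, Cd177 and Lrg1 lost their call without WT animal 1. Lcn2, S100a8, Wfdc21, Hp, Cd177 and Lrg1 lost it without WT animal 2. Of this list, only Ltb4r1 kept its call with each animal left out in turn. Summed reads of the list were 136980 to 166965 in DKO-labelled KLS cells, 1731 to 34089 in WT KLS cells and 151711 to 209747 in DKO-labelled GMPs. The Daxx-KO KLS libraries summed to 2345 to 7911, below WT animal 3, so the high sums among KLS cells were those of the DKO-labelled animals. The B-lineage sum was also highest in the same KLS libraries, and its part in the comparison was not tested.

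Camp, which encodes the antimicrobial peptide cathelicidin (GRCm38 9:109847379-109849617, minus strand), was at 12368 and 15354 in DKO-labelled KLS cells and at 9487 and 9043 in GMPs, with no value of KLS cells under those of GMPs (-0.57 ± 0.69, adjusted p = 0.621). In WT it was at 152.9, 49.8 and 2082 in KLS cells and 3584 to 23241 in GMPs, and the genotype difference was -6.07 ± 0.89 (adjusted p = 0.01). Ngp, the neutrophilic granule protein gene (9:110419747-110423012, plus strand), was at 123974 and 89314 in DKO-labelled KLS cells and 106624 and 65017 in GMPs (-0.34 ± 0.76, adjusted p = 0.808), while WT KLS cells held 820.6, 114.4 and 9876. It had the most negative genotype difference among the named genes (-6.39 ± 0.98, adjusted p = 0.0122). Other late genes with a smaller contrast were Lrg1 (-5.30, adjusted p = 0.0322), Cd177, which encodes a neutrophil surface antigen (-5.03, adjusted p = 0.0233), S100a8, which encodes a calprotectin subunit (-4.63, adjusted p = 0.0203), Hp, the haptoglobin gene (-4.38, adjusted p = 0.0264), Lcn2, which encodes the iron-scavenging lipocalin (-4.35, adjusted p = 0.0318), and Wfdc21 (-4.25, adjusted p = 0.0278). Ltb4r1, a leukotriene B4 receptor gene, was at 920 and 611 in DKO-labelled KLS cells and at 557.6 and 473.6 in GMPs, against 15.5 to 87.3 in WT KLS cells (-4.10 ± 0.40, adjusted p = 0.00157).

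A small set of late genes stood against this pattern and were low in DKO-labelled KLS cells. Ltf, which encodes lactoferrin (9:111019271-111042767, plus strand), was at 166.8 and 392.7 in KLS cells and at 24297 and 10729 in GMPs (5.97 ± 1.01, adjusted p = 0.00361), a contrast not called different from the 6.68 of WT. Chil3, which encodes a chitinase-like protein with close paralogues (3:106147554-106167564, minus strand), was at 10.95 and 24.1 in KLS cells, below all WT KLS libraries (37.6 to 2224), and at 4026 and 2706 in GMPs (7.58 ± 0.72, adjusted p = 0.000172). The collagenase gene Mmp8 (4.55, adjusted p = 0.00146) and the chemokine receptor gene Cxcr2 (3.16, adjusted p = 0.00471) were the other called members.

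The ratio of these genes within a library shows the split without any scaling between libraries. Ltf over Camp was 0.0135 and 0.0256 in DKO-labelled KLS cells and 0.311 to 3.78 in the other KLS libraries. In DKO-labelled GMPs it was 2.56 and 1.19, and in the other GMPs 1.59 to 5.22. Chil3 over Camp was 0.000885 and 0.00157 in DKO-labelled KLS cells, 0.424 and 0.299 in DKO-labelled GMPs and 0.754 to 1.51 in every other library. DKO-labelled KLS cells thus held less Ltf and Chil3 for their Camp than the GMPs of the same mice. Both ratios were chosen after the values were seen.

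**Figure D3:**
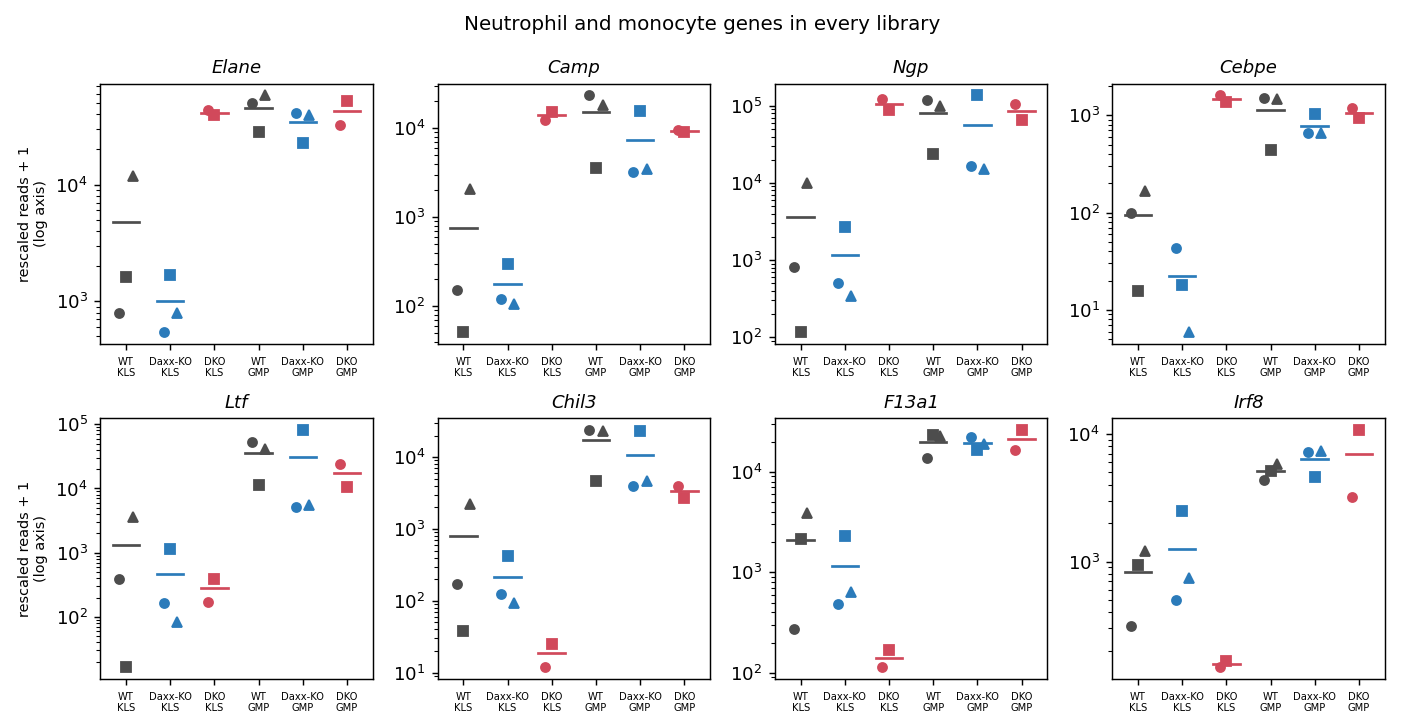
Rescaled reads + 1 (log axis) of 8 myeloid genes in KLS cells and GMPs of each genotype, with animals as point shapes and lines at group means. In DKO-labelled KLS cells Elane, Camp, Ngp and Cebpe stand at GMP levels, and Ltf, Chil3, F13a1 and Irf8 stand well below them.

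Among 13 tested myeloid transcription factors, 3 were higher and 1 lower in DKO-labelled GMPs, against 8 and 2 in WT, and 4 had a contrast called smaller than in WT. Over all genes 4.73% were called higher and 6.92% lower in DKO-labelled animals, against 22.3% and 23.4% in WT. A more negative difference than in WT was called for 1.39% of all genes. Cebpe, a regulator of secondary granule genes (14:54710360-54712174, minus strand), was at 1594 and 1368 in DKO-labelled KLS cells and at 1173 and 942.8 in GMPs (-0.49 ± 0.56, adjusted p = 0.601). It was at 14.7 to 165.4 in WT KLS cells and 4.88 to 41.8 in Daxx-KO KLS cells, with no overlap, and its contrast differed from WT by -4.45 ± 0.72 (adjusted p = 0.0154) and from Daxx-KO by -6.01 ± 0.72 (adjusted p = 0.00359). Gfi1, a repressor needed for neutrophil development that has an overlapping antisense transcript, was at 2619 and 1968 in DKO-labelled KLS cells and 1474 and 1350 in GMPs, against 208.9 to 529.4 in WT KLS cells (genotype difference -2.55 ± 0.39, adjusted p = 0.0116). Cebpd, at 489.5 and 392.7 in KLS cells and 719.1 and 831.4 in GMPs, differed from WT by -2.56 (adjusted p = 0.0419).

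Cebpa, the factor that starts granulocyte–monocyte commitment, was at 1085 and 1054 in DKO-labelled KLS cells, above the 131.9 to 326.3 of WT KLS cells, and at 983.2 and 2154 in GMPs. Its contrast in DKO-labelled animals (0.44, adjusted p = 0.525) and its difference from WT (-2.25, adjusted p = 0.0624) were not called. The called transcription factors were Irf8, Klf4 and Cebpb on the higher side, with Cebpb at 65.7 and 67.9 in KLS cells and 227 and 262.5 in GMPs (1.85, adjusted p = 0.0326). Nab2, which encodes a corepressor of Egr factors, was the lower one (-1.43, adjusted p = 0.0425).

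Monocyte genes were mostly higher in DKO-labelled GMPs. Of 14 tested members, 11 were called higher in DKO-labelled animals and 11 in WT, while over all genes 4.73% and 22.3% were. No genotype difference was called in this list, and the medians were 4.16 in DKO-labelled, 2.90 in WT and 2.72 in Daxx-KO animals. Irf8 (8:120736358-120756694, plus strand) was at 148.3 and 165 in DKO-labelled KLS cells, below every WT and Daxx-KO KLS library (314.8 to 2488), and at 3228 and 10673 in GMPs (5.22 ± 0.62, adjusted p = 0.000467). F13a1, which encodes a coagulation factor subunit made by monocytes and overlaps another annotated gene, was at 112.9 and 168.4 in KLS cells and 16529 and 25985 in GMPs (7.22 ± 0.67, adjusted p = 0.000156). WT KLS cells held 272.9 to 3872 reads of F13a1 and WT GMPs 13843 to 23122.

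Csf1r, the M-CSF receptor gene, was at 48.0 and 229.4 in DKO-labelled KLS cells and at 1289 and 2667 in GMPs (4.13 ± 0.40, adjusted p = 0.000179). Klf4, at 5.06 and 79.9 in KLS cells, reached 631.8 and 988.9 in GMPs (5.16, adjusted p = 0.00138). Further called members were the pore-forming protein gene Mpeg1 (5.0, adjusted p = 0.000172), the NADPH oxidase subunit gene Cybb (4.59, adjusted p = 0.000288), Ccr2 (4.18, adjusted p = 0.00225), Lgals3 (4.14, adjusted p = 0.000232) and Cx3cr1 (1.86, adjusted p = 0.00661). Fn1, the fibronectin gene, differed strongly between animals, at 5.90 and 47.3 in KLS cells and 9469 and 898.9 in GMPs (7.32 ± 0.98, adjusted p = 0.000978). Ly6c2, at 5265 and 5195 in KLS cells and 6164 and 12788 in GMPs, was the member nearest to the neutrophil pattern and was not called (0.76, adjusted p = 0.383).

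Of 15 cytokine receptor genes, 4 had a genotype difference called against WT, which was a larger rise for Csf2rb2, Csf2ra and Il6ra and a smaller fall for Il1r1. Over all genes 1.13% were called with a more positive difference than in WT. Csf2rb2, one of the paralogous common beta chain genes of the IL-3 and GM-CSF receptors (15:78282507-78305721, minus strand), was at 16.9 and 18.1 in DKO-labelled KLS cells and 611.1 and 533.6 in GMPs (4.96 ± 0.34, adjusted p = 3.58e-05). It was at 156.2 to 234.5 in WT KLS cells, and the genotype difference was 3.80 ± 0.44 (adjusted p = 0.00357). Reads can be split between it and its near copy Csf2rb, which was at 749.8 and 600.7 in KLS cells and 5504 and 4723 in GMPs (2.92, adjusted p = 2.04e-05). The GM-CSF receptor alpha chain gene Csf2ra was at 68.2 and 86.8 in DKO-labelled KLS cells and 1006 and 1036 in GMPs (3.71 ± 0.21, adjusted p = 1.06e-05), and differed from WT by 1.57 ± 0.28 (adjusted p = 0.0203).

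In total 5 receptor genes were higher and 5 lower in DKO-labelled GMPs, against 7 and 6 in WT. Over all genes 4.73% were called higher and 6.92% lower in DKO-labelled animals, and 22.3% and 23.4% were in WT. The higher receptor genes in DKO-labelled GMPs were the 3 above, Csf1r and the IL-6 receptor gene Il6ra (2.52, adjusted p = 8.06e-05; difference from WT 1.26, adjusted p = 0.0376). The G-CSF receptor gene Csf3r was not called (0.20, adjusted p = 0.494). Among the lower ones were Kit, Flt3, Tek (-3.06, adjusted p = 0.00192) and Il1r1 (-1.18, adjusted p = 0.0416), whose fall was smaller than in WT by 1.90 (adjusted p = 0.0454). Kit was at 8657 and 8881 in DKO-labelled KLS cells and 4329 and 4059 in GMPs (-1.06, adjusted p = 0.00423). Flt3, the receptor gene of lymphoid-primed progenitors, was at 335.3 and 597.2 in DKO-labelled KLS cells, below the 2554 to 3539 of WT KLS cells, and at 113.5 and 203.6 in GMPs (-1.55, adjusted p = 0.0114).

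Stem cell genes were lower in DKO-labelled GMPs for 15 of 22 tested members and higher for 1, against 22 lower in WT, with medians of -2.97 and -4.05. Over all genes 6.92% were called lower and 4.73% higher in DKO-labelled animals, against 23.4% and 22.3% in WT. Mecom, which encodes the stem cell factor Evi1 and overlaps an antisense gene, was at 5791 and 7101 in DKO-labelled KLS cells and 488.9 and 192.9 in GMPs (-4.38 ± 0.47, adjusted p = 0.000278). Its KLS values lay below the 15762 to 26705 of WT KLS cells and below the lowest Daxx-KO KLS value of 7364. Hlf, at 4235 and 6995 in KLS cells and 536.9 and 371.8 in GMPs (-3.60, adjusted p = 0.000194), and Meis1, at 3989 and 6593 against 450.7 and 402.9 (-3.59, adjusted p = 0.000221), are transcription factors of self-renewal.

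Further markers used to find stem cells were also lower in GMPs, with Fgd5 at -5.99 (adjusted p = 0.000441), Procr at -5.42 (adjusted p = 0.006), Esam at -5.41 (adjusted p = 0.000221) and Slamf1 at -5.11 (adjusted p = 0.00261). Prdm16 was at 816.3 and 1249 in KLS cells and 223.7 and 227.1 in GMPs (-2.16, adjusted p = 0.0235), a smaller fall than in WT by 3.17 (adjusted p = 0.04). Gimap6, at 563.6 and 624.7 in KLS cells and 170.2 and 120 in GMPs (-2.05, adjusted p = 0.000715), fell less than in WT by 2.53 ± 0.33 (adjusted p = 0.00657). For Gimap6 both ends differed from WT, whose KLS cells held 809.7 to 1446 reads and whose GMPs held 38.9 to 58.4.

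Gata2, a transcription factor of stem cells, mast cells and megakaryocytes (6:88193891-88207032, plus strand), ran in the opposite direction to WT. It was at 714.4 and 790.6 in DKO-labelled KLS cells and at 3552 and 2008 in GMPs (1.83 ± 0.23, adjusted p = 0.00075). In WT it was at 3005, 3150 and 1572 in KLS cells and 1332, 2096 and 753.8 in GMPs (-0.94). The genotype difference was 2.77 ± 0.30 against WT (adjusted p = 0.00249) and 2.89 against Daxx-KO (adjusted p = 0.00167).

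**Figure D4:**
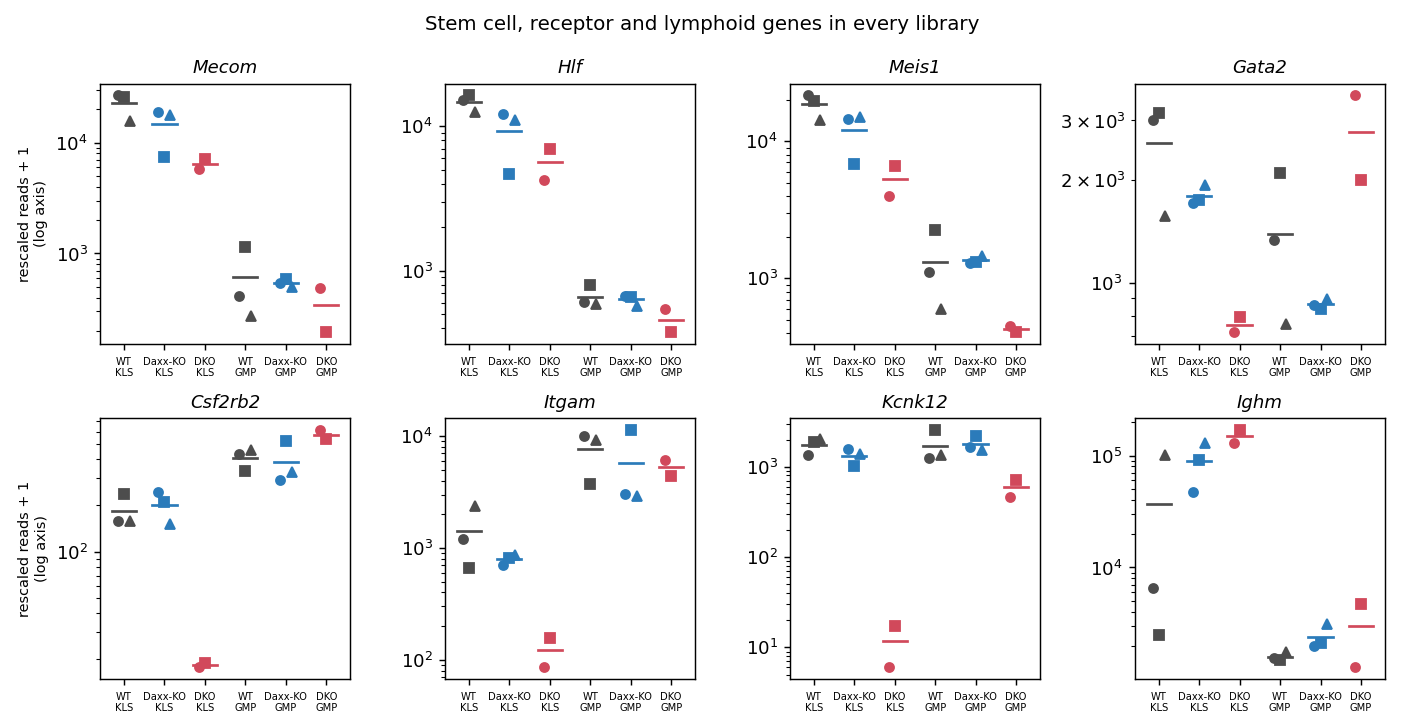
Rescaled reads + 1 (log axis) of 8 further genes in KLS cells and GMPs of each genotype, with animals as point shapes and lines at group means. Mecom, Hlf and Meis1 fall from KLS cells to GMPs in every genotype, Gata2 rises in DKO-labelled animals alone among the 3 genotypes plotted, and Kcnk12 and Csf2rb2 are low in DKO-labelled KLS cells.

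Lymphoid-priming genes gave 3 higher and 3 lower calls among 18 tested members in DKO-labelled animals, against 3 and 10 in WT, and 3 genotype differences were called, all towards a more positive value. Over all genes the shares were 4.73% higher and 6.92% lower in DKO-labelled animals and 22.3% and 23.4% in WT, so lower calls dropped about as much there. A more positive difference than in WT was called for 1.13% of all genes. Kcnk12, a potassium channel gene (17:87745801-87797994, minus strand), was at 5.05 and 16.3 in DKO-labelled KLS cells and 464.9 and 711.4 in GMPs (5.81 ± 0.32, adjusted p = 8.36e-06). Every WT and Daxx-KO library held 1020 to 2535 reads of Kcnk12 in both cell types, and the genotype difference of 5.89 ± 0.41 was the most positive among the named genes (adjusted p = 0.000393). The tetraspanin gene Cd53 (3.04, adjusted p = 0.000172) was another of the higher members, and Lax1 (-3.20, adjusted p = 0.00218), Bcl11a (-1.35, adjusted p = 0.013) and Flt3 the lower ones. Dntt, which encodes terminal deoxynucleotidyl transferase, was at 401.9 and 975.3 in KLS cells and 542.4 and 50.4 in GMPs, so the cell types overlapped (-1.91, adjusted p = 0.144), and its difference from WT was 4.47 (adjusted p = 0.0476). The remaining genotype difference was that of Mef2c (1.26, adjusted p = 0.0313).

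Of 14 tested B-lineage genes, 3 were lower in DKO-labelled GMPs and 0 higher, against 5 lower and 0 higher both in WT and in Daxx-KO animals. Lower calls over all genes were 6.92% in DKO-labelled, 23.4% in WT and 19.1% in Daxx-KO animals. Ighm, the IgM heavy chain gene, was at 128770 and 168381 in DKO-labelled KLS cells and 1287 and 4737 in GMPs (-5.90 ± 0.88, adjusted p = 0.00178). Daxx-KO KLS cells held 47218 to 128590 reads of Ighm and WT KLS cells 6624, 2470 and 101119, so the DKO-labelled KLS values were the highest, by a narrow margin over Daxx-KO animal 3. Fcrla (-4.19, adjusted p = 0.0242) and Cd79a (-2.12, adjusted p = 0.0435) were the other called members, while Ebf1, at 852.6 and 192.5 in KLS cells and 2670 and 19.3 in GMPs (-0.80, adjusted p = 0.603), and Pax5, at 313.4 and 38.7 against 732.2 and 10.7, were high in the GMP library of animal 1. Jchain, which encodes the joining chain of secreted IgM and lies outside the list, was at 11719 and 11058 in KLS cells and 1459 and 266.8 in GMPs (-4.19, adjusted p = 0.0407).

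Basophil, mast cell and eosinophil genes were higher in DKO-labelled GMPs for 9 of 13 tested members and lower for 0, with a median of 2.93 against 3.10 in WT. WT gave 10 higher and 1 lower in this list. Over all genes 4.73% were called higher in DKO-labelled animals and 22.3% in WT. Prg2, the eosinophil major basic protein gene, which shares sequence with Prg3, was at 214 and 792.3 in DKO-labelled KLS cells and 11203 and 51632 in GMPs (5.86 ± 0.60, adjusted p = 0.000232). WT KLS cells ranged from 222.2 to 20272 for Prg2, so this gene varied widely between WT animals. Epx, the eosinophil peroxidase gene, was at 94.4 and 746.7 in KLS cells and 8561 and 38270 in GMPs (6.08, adjusted p = 0.000452). The basophil protease gene Prss34 was at 21.1 and 0 in KLS cells and 2528 and 1189 in GMPs (8.53 ± 1.01, adjusted p = 0.000478), the largest rise among the genes named by the rule. Smaller rises were called for the IgE receptor gene Fcer1a (4.98, adjusted p = 0.0097), the histamine-forming enzyme gene Hdc (2.93, adjusted p = 0.000199), the IL-33 receptor gene Il1rl1 (2.73, adjusted p = 0.00468) and the mast cell protease gene Cpa3 (2.19, adjusted p = 0.0129). Mcpt8, another basophil protease gene, was at 408.6 and 305.9 in KLS cells and 1033 and 609.6 in GMPs and was not called (1.16, adjusted p = 0.171), but its contrast was smaller than in WT (-3.38, adjusted p = 0.0313).

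Megakaryocyte and erythroid genes gave 2 higher and 6 lower calls among 17 tested members in DKO-labelled animals, against 0 and 7 in WT and 2 and 7 in Daxx-KO animals. Over all genes the shares were 4.73% higher and 6.92% lower in DKO-labelled animals and 22.3% and 23.4% in WT. In DKO-labelled animals the higher ones were Gata2 and Gata1, the latter at 31.2 and 34.4 in KLS cells and 311 and 142.5 in GMPs (2.65, adjusted p = 0.00276). Among the lower ones were Vwf, the von Willebrand factor gene (-3.64, adjusted p = 0.00125), the P-selectin gene Selp (-2.70, adjusted p = 0.00248), Zfpm1, which encodes a GATA cofactor (-2.12, adjusted p = 0.0111), and Tal1 (-1.27, adjusted p = 0.00533).

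MHC class II and dendritic cell genes were lower in DKO-labelled GMPs for 5 of 12 tested members and higher for 0. The lower calls were 4 in WT and 8 in Daxx-KO animals. Over all genes 6.92% were lower in DKO-labelled, 23.4% in WT and 19.1% in Daxx-KO animals. Cd74, the invariant chain gene, was at 2318 and 2391 in KLS cells and 231.3 and 32.1 in GMPs (-4.75, adjusted p = 0.00441), with Ly6d (-4.78, adjusted p = 0.0208), H2-Aa (-4.30, adjusted p = 0.0137), H2-Eb1 (-3.04, adjusted p = 0.00483) and Flt3 beside it. Of 7 tested T and NK cell genes, Gata3 (-2.96, adjusted p = 0.00768) and Lck (-2.60, adjusted p = 0.0113) were lower. Their summed reads were 2729 to 2991 in DKO-labelled KLS cells and 728.6 to 1447 in the other KLS libraries, most of it from Nkg7 in DKO-labelled cells.

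Cell cycle genes were called higher in DKO-labelled GMPs for 3 of 31 members and lower for 0, against 26 and 3 in WT, with medians of 0.28 in DKO-labelled, 1.61 in WT and 1.01 in Daxx-KO animals. Higher calls over all genes were 4.73% in DKO-labelled animals and 22.3% in WT. Mki67, the proliferation marker, was at 43788 and 16140 in DKO-labelled KLS cells and 44271 and 28634 in GMPs, so the cell types overlapped (0.42, adjusted p = 0.496). WT KLS cells held 5401 to 14515 reads of Mki67 and WT GMPs 27018 to 48619. The genotype difference was called for E2f8 (-1.88, adjusted p = 0.0313), the mitotic kinesin gene Kif11 (-2.02, adjusted p = 0.0497) and, in the other direction, the cyclin gene Ccnd1 (2.21, adjusted p = 0.0272), and not for Mki67 (-1.57, adjusted p = 0.127). The called rises were those of the replication genes Ccne2 (1.24, adjusted p = 0.0131) and Mcm3 (0.88, adjusted p = 0.0486), and Ccnd1 (1.23, adjusted p = 0.033).

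Interferon-response genes, read because Cre was induced through interferon, were lower in DKO-labelled GMPs for 4 of 20 members and higher for 0, against 13 lower in WT. Over all genes the lower calls also went from 23.4% in WT to 6.92%, so the drop in this list was close to that of all genes. The called genes were Ifi44 (-3.44, adjusted p = 0.00246), Rsad2 (-2.72, adjusted p = 0.0098), Rtp4 (-1.98, adjusted p = 0.0242) and Ifih1 (-0.94, adjusted p = 0.0242). Summed reads were 3747 to 3863 in DKO-labelled KLS cells and 2447 to 2587 in GMPs. No genotype difference was called in this list.

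Genes of the sorted surface proteins were called higher in DKO-labelled GMPs for 5 of 11 tested members and lower for 2, against 5 and 3 in WT and 4 and 3 in Daxx-KO animals. Over all genes 4.73% were called higher and 6.92% lower in DKO-labelled animals, and 22.3% and 23.4% in WT. Fcgr3, a CD16 gene with paralogues, was at 329.4 and 341.1 in KLS cells and 1498 and 4112 in GMPs (2.88, adjusted p = 0.00294), and Fcgr2b, a CD32 gene, was also higher (3.25, adjusted p = 0.000191). Cd34 was at 206.4 and 494.1 in DKO-labelled KLS cells and 323 and 886.1 in GMPs (0.74, adjusted p = 0.0421), with overlapping ranges between cell types though higher in GMPs within each animal, and its KLS values lay below the 1935 to 2350 of WT. Itgam, which encodes CD11b, a marker of the lineage panel, was at 85.1 and 157.3 in DKO-labelled KLS cells, below the 666.6 to 2381 of WT, and at 6177 and 4374 in GMPs (5.48 ± 0.45, adjusted p = 8.96e-05; difference from WT 2.98, adjusted p = 0.0312). The CD45 gene Ptprc was at 2759 and 1759 in KLS cells and 5255 and 5382 in GMPs (1.27, adjusted p = 0.00419).

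**Figure D5:**
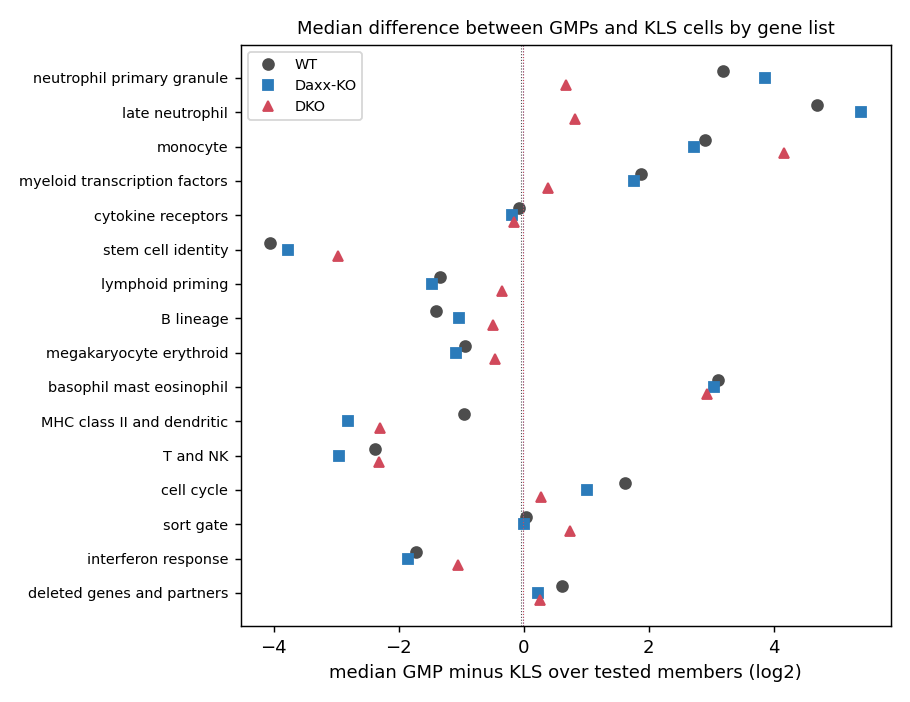
Median GMP-minus-KLS difference (log2) over tested members of 16 gene lists in WT, Daxx-KO and DKO-labelled animals (points), with dotted lines at the medians of all genes. The DKO-labelled medians of the primary granule and late neutrophil lists are 0.67 and 0.82, against 3.19 and 4.68 in WT, and the monocyte median is 4.16 against 2.90.

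By size, the genes with the largest rises in DKO-labelled GMPs were Prss34, Chil3, Fn1, F13a1, Tifab and Gapt. Tifab, which encodes an inhibitor of TRAF6 signalling, was at 12.6 and 20.6 in KLS cells and 1337 and 3689 in GMPs (7.02 ± 0.73, adjusted p = 0.000235). Gapt was at 8.43 and 6.87 in KLS cells, below the 34.3 to 317.8 of WT KLS cells, and at 575.1 and 1303 in GMPs (6.65 ± 0.45, adjusted p = 2.99e-05), a larger rise than in WT by 4.30 ± 0.58 (adjusted p = 0.0068). On the lower side stood Lhcgr, the luteinising hormone receptor gene, at 536.6 and 778.5 in KLS cells and 1.09 and 0 in GMPs (-8.81 ± 0.58, adjusted p = 2.49e-05), with Nrk (-7.10, adjusted p = 0.000244), Apob (-7.10, adjusted p = 0.00225) and Plscr2 (-6.86, adjusted p = 0.000452). Exph5 had no reads in either DKO-labelled GMP library and at least 120.0 in KLS cells, which makes it at least 36.8-fold lower when 3 reads per library are taken as the floor.

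The genes that set DKO-labelled animals furthest from WT in the positive direction were Kcnk12, Mkx, Aqp9, Ankrd33b, Trim30b and Cds1. Aqp9, which encodes a water and glycerol channel, was at 103.6 and 62.7 in DKO-labelled KLS cells and 460.5 and 215.4 in GMPs, whereas in WT it was at 393 to 625.7 in KLS cells and 50.8 to 95.5 in GMPs (difference 4.72, adjusted p = 0.00157). Mkx, a homeobox gene, was at 10.95 and 5.16 in KLS cells and 360.1 and 396.4 in GMPs (difference 4.88, adjusted p = 0.0111). In the negative direction they were Ngp, Camp and Lrg1 of the late neutrophil list, with Chit1, a chitinase gene (-6.21, adjusted p = 0.0212), Ccno, which encodes an atypical cyclin (-5.74, adjusted p = 0.0378), and Olfm4, a gene of neutrophil secondary granules (-5.29, adjusted p = 0.0215). Chit1 was at 916.6 and 730.4 in DKO-labelled KLS cells and 337.2 and 320.4 in GMPs, and Olfm4 at 1185 and 995.9 against 667.8 and 478.9, so both were higher in the KLS libraries than in the GMP libraries.

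Against Daxx-KO animals, which share the Daxx genotype, the genes furthest apart were Kcnk12 (5.38), Adora2b (5.04), Aqp9 (4.94), Trim30b (4.92), Rgs8 (4.79) and Kcng1 (4.36) in the positive direction and Lrg1 (-6.64), Ccno (-6.49), Mogat2 (-6.28), Cebpe (-6.01), Rhou (-6.00) and Lin28a (-5.76) in the negative direction. Kcnk12, Aqp9 and Trim30b and, on the other side, Lrg1 and Ccno were named by the rule in both tests, which use the same DKO-labelled libraries. Elane differed from the Daxx-KO contrast by -5.22 (adjusted p = 0.0188).

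Repeat subfamilies were read in 11 libraries of deposited counts, and the tests used the DKO-labelled and WT libraries without the Daxx-KO ones. The quasi-likelihood test of edgeR gave 0 calls of 835 tested (0.0%) in DKO-labelled animals, in WT and for their difference. At an unadjusted p under 0.05, 52 subfamilies were higher and 34 lower in DKO-labelled GMPs and 65 and 49 in WT. DESeq2 called 9 higher and 3 lower in DKO-labelled GMPs.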

How the data were processed

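RNA-seq libraries of KLS cells and GMPs were read at 3 w.p.i., with groups from the labels. GMP columns carry animal numbers that the labels tie to KLS samples, and 1 WT animal bears a number that is in no label and was mapped by the control ending of its repeat column. The gene tables deposited by the authors hold signal values, which are normalised counts (reads per gene over a size factor for each library, mm10, GENCODE M14). The repeat tables deposited by the authors hold raw counts per subfamily. The submitters' processing notes name CASAVA 1.8.4, cutadapt 1.13, STAR 2.5.3 and DESeq2 1.16.1. Which program counted reads, and whether strand was used, is not given in the sources used here, so overlapping genes and paralogues are uncertain. The labels and the methods of the study name different library kits, and the kit is unsettled.

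In every column used, 100% of values above 0 were whole reads within 0.01 after division by the step of the column. As KLS and GMP tables had been normalised apart, these reads were rescaled jointly by median-of-ratios size factors over 16 libraries. Genes with a mean of 10 or more (14716 of 51810) were tested on log2(value + 1) with limma 3.58.1 under R 4.3.3, with a trended variance, the animal as a block and 1 GMP-minus-KLS term per genotype. Differences of low genes are understated on this scale. Genotypes were compared by the difference of these terms. Same-numbered KLS and GMP libraries come from the same animal, which is why the block was used; their deviations from the group means correlated by -0.023 to 0.164. Repeat counts (888 subfamilies joined, 835 tested) were tested with edgeR 4.0.16 without the block. Alternatives covered scaling, filter, pseudocount, block, edgeR and DESeq2 1.42.0 on recovered reads, and leaving out each animal, with 3 added after the data were seen. The tests were checked on simulated data. Of 111 columns of values per sample, 84 were not used, and other time points and populations were not analysed here.

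The text names, per contrast of DKO-labelled animals, the 6 largest rises and 6 largest falls among called genes with no overlap of libraries between cell types (for genotype differences, no overlap of within-animal differences) and a mean of 50 or more, leaving out predicted genes and antigen receptor segments. It also names members of 16 lists (240 genes, 221 tested), Daxx, Spi1 and, chosen after its values were seen, Jchain. The members and lists were chosen with earlier results of these data known. Some genes that this rule and the lists hold are not reported here. Coordinates are from GENCODE M21 (GRCm38).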

Additional observations from a re-analysis of the deposited data

Results flagged for a closer look

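The GMP-minus-KLS difference was tested between genotypes, and each gene here is listed because that test called it, not because of any explanation. Against WT, 166 genes had a more positive and 205 a more negative difference in DKO-labelled animals, and against Daxx-KO animals 141 and 170, with the DKO-labelled libraries shared by both tests. All values are differences of log2 differences by limma.

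Against WT, the named genes with the most negative difference were Ngp (-6.39), Chit1 (-6.21), Camp (-6.07), Ccno (-5.74), Lrg1 (-5.30) and Olfm4 (-5.29). Further members of the late neutrophil list were Cd177 (-5.03), S100a8 (-4.63), Hp (-4.38), Lcn2 (-4.35), Wfdc21 (-4.25) and Ltb4r1 (-4.10), and the transcription factors were Cebpe (-4.45), Cebpd (-2.56), Gfi1 (-2.55) and Spi1 (-0.96). Primary granule genes were Elane (-4.15), Nkg7 (-2.90), Cst7 (-2.74), Prss57 (-2.58) and Serpinb1a (-1.62). Outside the neutrophil lists stood the basophil gene Mcpt8 (-3.38) and the cell cycle genes Kif11 (-2.02) and E2f8 (-1.88).

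In the other direction against WT, the largest were Kcnk12 (5.89), Mkx (4.88), Aqp9 (4.72), Ankrd33b (4.68), Trim30b (4.64) and Cds1 (4.48). Lymphoid-priming genes were Dntt (4.47) and Mef2c (1.26). Receptor genes were Csf2rb2 (3.80), Il1r1 (1.90), Csf2ra (1.57) and Il6ra (1.26), and stem cell genes were Prdm16 (3.17), Gata2 (2.77) and Gimap6 (2.53). Surface protein genes were Itgam (2.98), Cd34 (1.49) and Ptprc (1.32), and Ccnd1 (2.21) was the cyclin gene.

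Against Daxx-KO animals, the positive genes were Kcnk12 (5.38), Adora2b (5.04), Aqp9 (4.94), Trim30b (4.92), Rgs8 (4.79) and Kcng1 (4.36), and the negative ones Lrg1 (-6.64), Ccno (-6.49), Mogat2 (-6.28), Cebpe (-6.01), Rhou (-6.00) and Lin28a (-5.76). Elane, at -5.22, was called as well but is outside the 6 named per direction.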

How the results depend on the processing

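Of 85 genes read singly and called between DKO-labelled GMPs and KLS cells, 45 stayed called with each animal left out in turn and 44 under every alternative run. For the difference from WT this held for 5 of 43 (Aqp9, Csf2rb2, Gata2, Kcnk12 and Ltb4r1), and for the difference from Daxx-KO for 4 of 12 (Aqp9, Cebpe, Kcng1 and Kcnk12). Leaving out 1 DKO-labelled animal leaves 1 per cell type, which is then assumed to vary like the other groups. The cause of the changes given here was not tested. With each animal left out, the DKO-labelled contrast gave 255 (without DKO-labelled animal 2) to 1181 (without Daxx-KO animal 2) higher and 200 to 1359 lower calls. WT gave 1633 to 3734 and 2012 to 3719, with WT animal 1 the lowest in both, and Daxx-KO 1059 to 2921 and 1536 to 3073. The difference from WT gave 29 to 263 and 9 to 370, both lowest without DKO-labelled animal 1, and the difference from Daxx-KO 49 to 175 and 33 to 195. The mean position of DKO-labelled KLS cells ran from 32.2 to 47.2% over all axis genes, 48.5 to 66.9% for GMP-high and 24 to 38.9% for KLS-high genes.

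On values as deposited the calls were 446 higher and 1924 lower in DKO-labelled animals, 2179 higher in WT and 1321 higher in Daxx-KO, and the median of all genes moved to -0.30, -0.27 and -0.27. With total-count scaling these medians were -0.12, -0.23 and -0.18. Fitted without the other genotypes and with no replicate block, DKO-labelled animals gave 320 and 486 calls. For the difference from WT, no filter gave 88 and 122, no replicate block 84 and 38, edgeR 98 higher, and DESeq2 475 and 520. For the difference from Daxx-KO, no filter gave 90 higher, DESeq2 378 and 373, and no replicate block 76 lower. The position for GMP-high genes was 48.1% by least squares, 66.2% with an absolute difference of 2 or more and 65.1% with total-count scaling.

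Of repeat subfamilies, DESeq2 called 9 higher and 3 lower in DKO-labelled animals and 17 and 8 in WT, and the replicate block, possible for animals with both repeat libraries, 1 and 1 and 2 and 2. With 1 repeat library left out, 0 to 24 were called higher in DKO-labelled animals (24 without GMP replicate 1) and 0 to 0 lower, and 0 to 18 and 0 to 6 in WT.

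Among single genes, directions turned where the difference was near 0 or 1 animal decided it. Daxx in DKO-labelled animals was at -0.099 with total-count scaling, -0.278 as deposited and -0.055 by edgeR, and between -0.284 (without animal 2) and 0.298 with 1 animal left out. Elane was at 0.019 with TMM and between -0.424 and 0.413 (without animal 1). With animal 2 or animal 1 left out, Cebpa was at -0.142 or 1.032, Ebf1 at 1.646 or -3.252 and Dntt at 0.431 or -4.248. The Ltf difference from WT ran from -2.281 without WT animal 3 to 0.661 without WT animal 2, and was 0.49 without DKO-labelled animal 2.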
